A study of Mus musculus with 3 samples.

Results

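Polyamine metabolism was followed through the probe sets whose platform annotation gives exactly 1 gene symbol from a list of 10 genes: *Odc1*, *Amd1*, *Srm*, *Sms*, *Sat1*, *Smox*, *Oaz1*, *Oaz2*, *Azin1* and *Arg2*. This gave 16 of the 45101 probe sets, for 8 of the 10 genes and of the 18193 genes named on the array. *Amd1* and *Sms* had no probe set with a single symbol; 3 probe sets naming *Sms* and 1 naming *Oaz1* each list a pseudogene beside it and were left out. The samples were kidneys of male C57BL/6J mice aged 16 weeks, all of which had lost the other kidney 6 weeks earlier. In the uninephrectomy alone group (1 array) this was the named operation. In the cardio-renal syndrome group (2 arrays) a band had also been tied around the abdominal aorta, per the labels below the branching of the renal arteries, 2 weeks before the kidney was taken out. The series text mentions sham operations without saying which group had them, and it is not stated whether the RNA on an array came from 1 mouse or several.

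Polyamines are small cations made from ornithine. Arginase 2 makes ornithine from arginine in mitochondria, ornithine decarboxylase (*Odc1*) turns it into putrescine, and spermidine synthase (*Srm*) and spermine synthase (*Sms*) add aminopropyl groups supplied by S-adenosylmethionine decarboxylase (*Amd1*). *Sat1* acetylates spermidine and spermine and *Smox* oxidises spermine. Antizymes (*Oaz1*, *Oaz2*) bind ornithine decarboxylase and deliver it to the proteasome, and the antizyme inhibitor (*Azin1*) binds antizyme in its place. In mouse kidney, *Odc1* is known as an androgen-responsive transcript of the proximal tubule.

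The promoter of *Odc1* is shown because its probe sets stood furthest apart between the cardio-renal arrays, and that of *Oaz1* because this antizyme gene did not show such a gap. Both are RefSeq sequence of GRCm38.p6, plus strand, 5′ to 3′, from the 250 bases before the annotated start of a transcript; for *Odc1* the last 65 of these lie inside the annotated gene and are not printed, which leaves 185. Capitals mark the GC box GGGCGG and the cAMP response element core TGACG on either strand.
Odc1, chr12:17544623-17544807: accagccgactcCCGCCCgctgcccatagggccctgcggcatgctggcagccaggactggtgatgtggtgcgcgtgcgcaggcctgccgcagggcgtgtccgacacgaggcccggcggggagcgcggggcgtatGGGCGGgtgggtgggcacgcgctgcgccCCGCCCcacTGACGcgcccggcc
Oaz1, chr10:80826406-80826655: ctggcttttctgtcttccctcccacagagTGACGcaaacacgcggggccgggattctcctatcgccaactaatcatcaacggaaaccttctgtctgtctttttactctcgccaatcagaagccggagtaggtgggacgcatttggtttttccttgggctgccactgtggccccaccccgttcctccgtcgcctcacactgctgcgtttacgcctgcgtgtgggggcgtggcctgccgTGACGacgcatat

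Over the full 250 bases, the *Odc1* window held 4 GC boxes and 1 TGACG, and the *Oaz1* window 0 GC boxes and 2 TGACG. Of the 32851 RefSeq windows of the same length, 32.7% held a GC box and 17.8% a TGACG. Neither window held the E-box CACGTG (6.02% of windows), the TATA box TATAAA (12.4%) or the androgen response element (0.387%), each on both strands. These matches describe the letters of the windows and were not tied to the array values. A promoter window was found for 7 of the 10 genes; *Srm*, *Azin1* and *Arg2* had none in the table used.

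Values below are MAS5 signals, the linear brightness that Affymetrix software gives each probe set, in the order uninephrectomy alone, cardio-renal array 1, cardio-renal array 2. Differences are on the log2(signal + 28.8) scale, with the uninephrectomy array subtracted, and 28.8 is the median of the arrays' lower quartiles. A filter on low values left 22519 probe sets, among them 14 of the 16 members, covering all 8 genes; the dimmer *Smox* and *Oaz2* probe sets did not pass. The fit with limma over these 22519 rests on 1 residual degree of freedom and assumes that the lone uninephrectomy array varies like the cardio-renal pair.

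Ornithine decarboxylase was lower in cardio-renal array 1 on each of its 3 probe sets, while array 2 lay close to uninephrectomy alone. Probe set 1427364_a_at gave *Odc1* signals of 3119, 1582 and 2711. Array 1 therefore stood at 50.7% of the uninephrectomy signal and array 2 at 86.9%, differences of -0.97 and -0.20. Probe set 1438761_a_at gave 14216, 8529 and 13671, differences of -0.74 and -0.06. Probe set 1437711_x_at, whose suffix marks sequence that may be shared with other transcripts, gave 18297, 13963 and 17570, differences of -0.39 and -0.06. All 3 were lowest in array 1 and highest with uninephrectomy alone, but they disagreed on the size of the gap in array 1, from 76.3% of the control signal on 1437711_x_at to 50.7% on 1427364_a_at. The probe sets read the same transcript and are not independent measurements.

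As a group difference, *Odc1* rested on array 1. The mean log2 difference was -0.58 ± 0.54 (SD, n = 2) on 1427364_a_at, -0.40 ± 0.48 on 1438761_a_at and -0.22 ± 0.23 on 1437711_x_at, so that each mean was about the size of its spread. Without array 1 these means became -0.20, -0.06 and -0.06. The limma adjusted p (Benjamini-Hochberg over all 22519) was 0.9998 for each, and the 95% interval on 1427364_a_at ran from -1.23 to 0.06. In whole-kidney RNA, fewer cells that express the gene and less of its RNA per cell cannot be told apart.

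**Figure D1:**
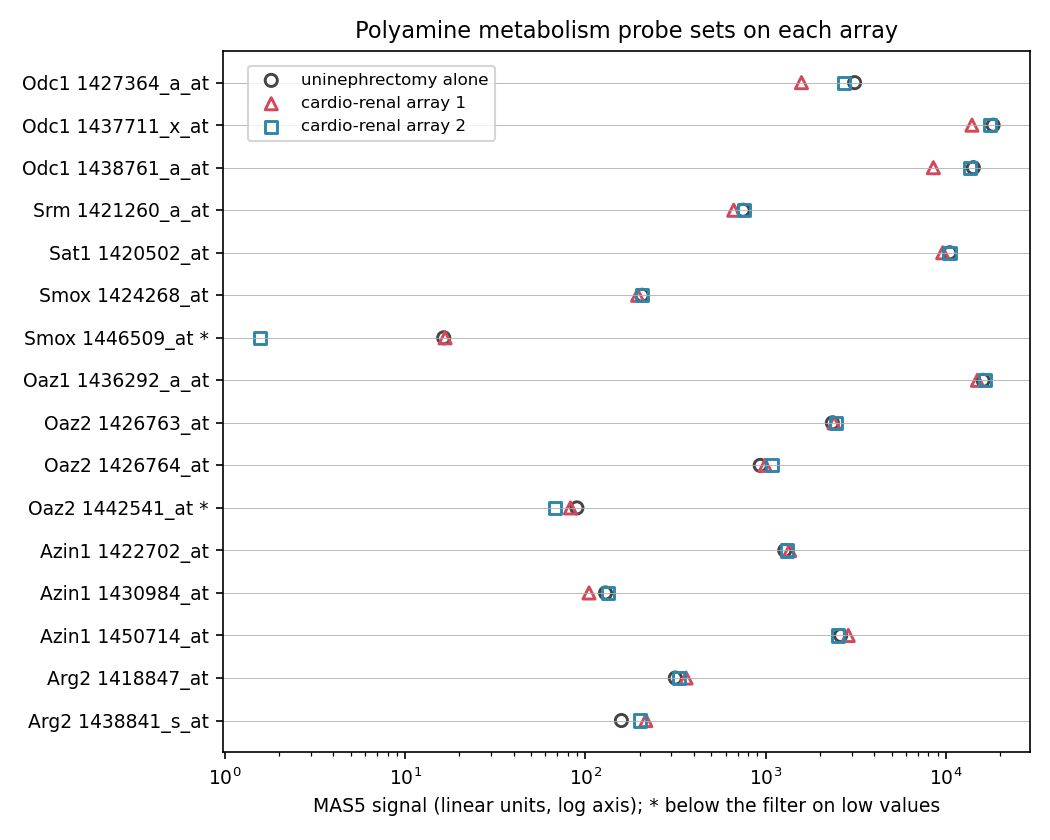
MAS5 signal of each of the 16 probe sets (log axis) on the uninephrectomy array (circle), cardio-renal array 1 (triangle) and cardio-renal array 2 (square); an asterisk marks the pair below the filter on low values. The 3 Odc1 rows show array 1 to the left of the other arrays, at 1582, 13963 and 8529, while most other rows overlap.

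Between the cardio-renal arrays, *Odc1* was the member furthest apart. Array 1 minus array 2 was -0.77 on 1427364_a_at, -0.68 on 1438761_a_at and -0.33 on 1437711_x_at, so array 1 held 58.4%, 62.4% and 79.5% of the array 2 signal. The first and second of these were the 2 of 14 member probe sets at least 1.5-fold lower in array 1 than in array 2, a limit chosen after the values were seen, against 2.29% of all probe sets kept. No member reached 2-fold in this comparison, where 0.973% of probe sets did. With 1 array on either side there is no test.

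Cardio-renal array 1 also read lower over the bright end of the array. Of 626 probe sets with a mean signal of at least 10000, 85% were lower in array 1 than in array 2, with a median difference of -0.15. Quantile normalization, which gives the arrays the same distribution, moved array 1 minus array 2 to -0.16 on 1437711_x_at and -0.57 on 1438761_a_at, and left it at -0.76 on 1427364_a_at. The gap on 1427364_a_at, whose signals of 1582 to 3119 lie below this bright range, was little changed. That on 1437711_x_at shrank from -0.33 to -0.16 on the log2 scale.

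Genes known to be higher in male than in female mouse kidney were also lower in array 1. All 10 of the 10 male-biased genes listed were lower in array 1 than in array 2, beside 46.9% of 11146 genes with 1 probe set each. The list was chosen with earlier results of these data known, and 4 of the 10 have a mean signal of at least 10000, where 85% of probe sets were lower in array 1, so the count is a description only. Their signals summed to 140083 on the uninephrectomy array, to 77838 on array 1 and to 146973 on array 2. The androgen-dependent organic anion transporter *Slco1a1* stood in array 1 at 0.365% of its uninephrectomy signal, the oxysterol hydroxylase *Cyp7b1* at 15.3% and *Kap*, the kidney androgen-regulated protein gene, at 74.6% on its brightest probe set and 97.6% on its other, 1415968_a_at. The 3 female-biased genes measured had summed signals of 4740, 17829 and 6195. All were higher in array 1 than in array 2, as were 5916 of 11146 genes. They also lay above the control in array 2, *Slc7a12* by 1.58, *Cyp4a14* by 0.38 and *Abcc4* by 0.05, and 30.6% of genes were above it in both arrays. No marker of either list was at 0, but *Slco1a1* in array 1, at a signal of 22.5, lay below that array's lower quartile of 28.8. The part of these genes in the *Odc1* difference was not tested.

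**Figure D2:**
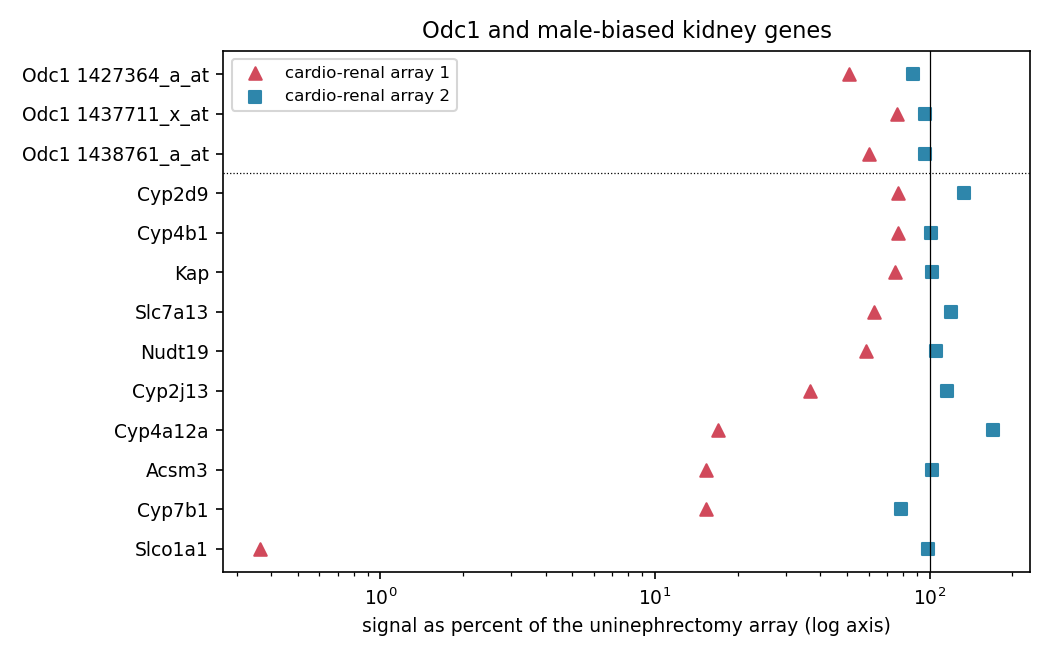
Signal in cardio-renal array 1 (triangle) and array 2 (square) as a percent of the uninephrectomy array (log axis, line at 100) for the 3 Odc1 probe sets and the 10 male-biased kidney genes. In array 1 every point lies left of the line, with Odc1 between 50.7% and 76.3% and Slco1a1 at 0.365%.

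Other proximal tubule transcripts varied in how far the arrays lay apart. The endocytic receptor gene *Lrp2* had differences of -0.02 and 0.13, and the phosphate transporter gene *Slc34a1* of -0.19 and 0.04. The organic cation transporter gene *Slc22a2* was lower in array 1, at -0.50 and 0.21, with an array 1 minus array 2 of -0.71, beside -0.77, -0.68 and -0.33 on the *Odc1* probe sets. Summed over 7 nephron markers, signals were 90517, 85950 and 92725. *Umod*, a loop of Henle marker, had signals of 28134, 26237 and 28669, and *Aqp2*, the collecting duct water channel, of 2125, 1854 and 1902.

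*Arg2*, the mitochondrial arginase that supplies ornithine, was measured by 2 probe sets. Probe set 1438841_s_at gave signals of 158.5, 216.6 and 200.1, differences of 0.39 and 0.29 and a mean of 0.34 ± 0.07 (SD, n = 2). The other *Arg2* probe set, 1418847_at, gave 315.6, 362 and 329.1, differences of 0.18 and 0.06. On both, the uninephrectomy array was the lowest of the 3, as on 31.8% of all probe sets kept. The limma interval for 1438841_s_at, -0.21 to 0.89, included 0, and its adjusted p was 0.9998. This suffix marks probes that can match several transcripts, and with an offset of 100 the mean was 0.25.

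Spermidine synthase, measured by 1 *Srm* probe set, had signals of 750.5, 665.6 and 759.9. The uninephrectomy value lay between the cardio-renal values, at differences of -0.17 and 0.02. The limma interval of the mean difference ran from -0.51 to 0.36.

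The catabolic enzymes lay close to the control. *Sat1*, the spermidine/spermine acetyltransferase, had signals of 10528, 9613 and 10483, differences of -0.13 and -0.01. Array 1 was the lowest of the 3 and array 2 almost met the control. After quantile normalization the *Sat1* differences were -0.05 and -0.03, and array 1 minus array 2 went from -0.12 to -0.02. *Smox*, the spermine oxidase, had 206.6, 194.9 and 207.1 on 1424268_at, differences of -0.07 and 0.0034. Its second probe set, 1446509_at, gave 16.4, 16.7 and 1.57, below the filter, where MAS5 values are noisy and carry no order.

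Antizymes and the antizyme inhibitor also differed little. *Oaz1* had signals of 16099, 14975 and 16506, differences of -0.10 and 0.04, and after quantile normalization 0.02 and -0.01, so the direction in each array turned with the scaling. *Oaz2* had 2347, 2399 and 2469 on 1426763_at and 933.3, 994.8 and 1088 on 1426764_at. Both *Oaz2* probe sets were lowest with uninephrectomy alone and highest in array 2, with mean differences of 0.05 ± 0.03 and 0.15 ± 0.09 (SD, n = 2). The third *Oaz2* probe set, 1442541_at, was below the filter, with signals of 89.8, 82.6 and 68.2.

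*Azin1*, which frees ornithine decarboxylase from antizyme, had 3 probe sets that did not share an order. Signals were 2611, 2875 and 2530 on 1450714_at and 1278, 1360 and 1311 on 1422702_at. Array 1 was the highest on both. On 1430984_at array 1 was the lowest, at 129.4, 104.8 and 133.9. Mean differences over the 3 lay between -0.10 and 0.06, and the widest limma interval, on 1430984_at, ran from -0.73 to 0.52.

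**Figure D3:**
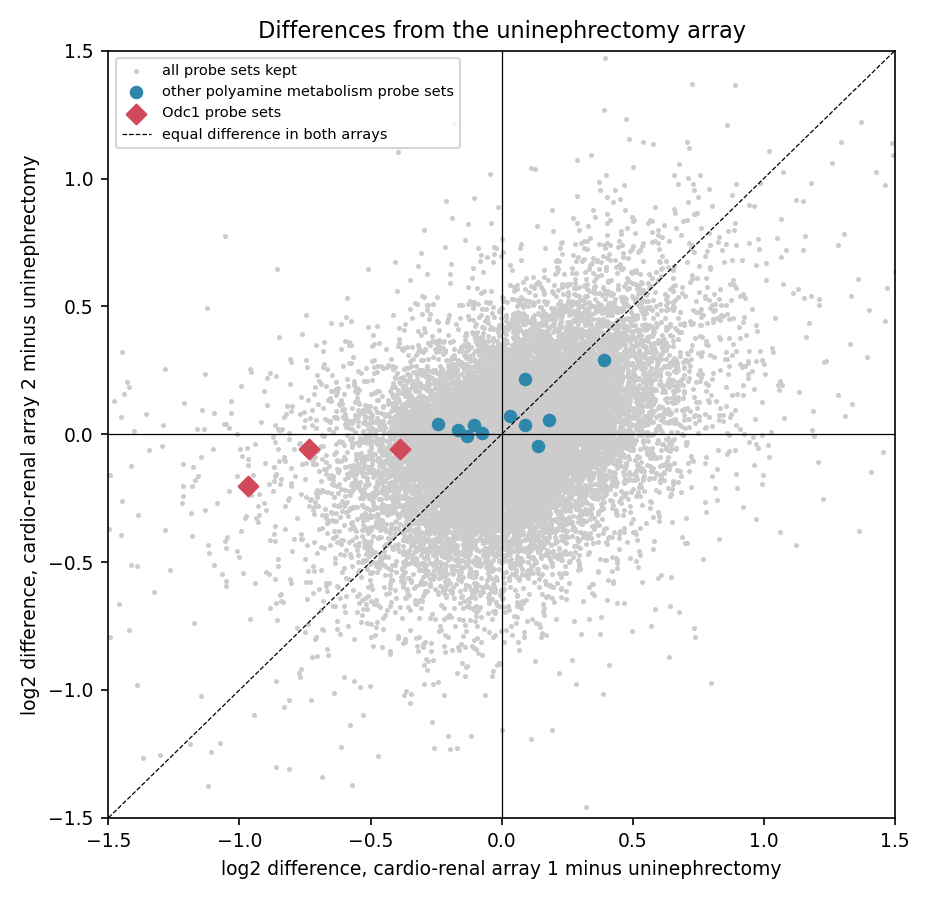
Log2 difference from the uninephrectomy array in cardio-renal array 1 (x axis) and array 2 (y axis) for the 22519 probe sets kept (grey; 96 lie outside the axes), the 3 Odc1 probe sets (diamonds) and the 11 other members kept (circles). The Odc1 probe sets lie left of the 11 other members, at -0.97, -0.74 and -0.39 on the x axis and between -0.20 and -0.06 on the y axis; the dashed line marks equal differences.

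Counted over the 14 member probe sets kept, 5 lay above the control in both cardio-renal arrays and 4 below it in both, where 31.8% and 29.7% of all probe sets kept were. The 5 were those of *Arg2* (2), *Oaz2* (2) and *Azin1* (1), and the 4 those of *Odc1* (3) and *Sat1* (1). The members' median difference was -0.09 in array 1 and 0.03 in array 2, beside 0.02 and -0.01 over all probe sets. None of the 14 was at least 2-fold higher in both arrays (0.142% of probe sets were) or at least 2-fold lower in both (0.0533%). By limma, 0 of the 14 and 0 of the 22519 (0%) passed the adjusted p, while an unadjusted p under 0.05 was found for none of the members and for 627 probe sets (2.78%). Both cardio-renal differences use the same uninephrectomy array, so a shared sign can come from that array alone. In array 1 the signal was below that of array 2 on 10 of the 14, against 44.9% of probe sets; after quantile normalization it was 9 of 14, against 50% of probe sets.

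Genes around the pathway were taken from 5 lists, with the brightest probe set of each gene. By limma's adjusted p, 0 of their 42 kept genes passed in either direction (0% of 11146), and 1, *Aoc1*, had an unadjusted p under 0.05 (2.5% of all genes). Of the genes that supply or use ornithine and arginine, 12 of 14 were kept, 2 higher and 5 lower in both arrays (30.6% and 29.8% of genes), with medians of -0.05 and -0.04. *Ass1*, argininosuccinate synthase, stood at -0.43 and -0.28, *Slc7a2*, a cationic amino acid transporter, at -0.19 and -0.14, and *Gamt*, which completes creatine synthesis, at 0.32 and 0.16. The other *Slc7a2* probe sets, all below the filter, did not share this direction. They stood at 0.04 and 0.41 (1426008_a_at), 0.21 and -0.07 (1422648_at) and -0.06 and 0.10 (1450703_at). *Oat*, the ornithine aminotransferase that competes for the substrate of ornithine decarboxylase, was the furthest apart, with signals of 5601, 8254 and 5619. It was higher in array 1, where *Odc1* was lower, by 0.56 over the control, and matched the control in array 2. A link between the values of *Oat* and *Odc1* was not tested.

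The methionine cycle and the salvage of methylthioadenosine, the by-product of spermidine and spermine synthesis, had 8 of 11 genes kept, 3 higher and 2 lower in both arrays, with medians of 0.02 and 0.02. *Ahcy*, which clears S-adenosylhomocysteine, had signals of 8908, 6652 and 9938, differences of -0.42 and 0.16, so the control lay between the cardio-renal arrays. *Mtap*, the phosphorylase that opens the salvage route, stood at 0.17 and 0.18 on its brightest probe set, but 2 of its 3 others lay below the control in both arrays. *Adi1* and *Apip*, enzymes of the same route, stood at 0.19 and 0.08 and at -0.09 and -0.06; another *Adi1* probe set, 1438758_at, lay at -0.03 and -0.04.

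Polyamine catabolism and transport had 11 of 18 genes kept, 3 higher and 1 lower in both arrays, with medians of -0.09 and 0.08. *Aoc1*, the diamine oxidase that degrades putrescine and histamine, was the gene lower in both, with signals of 197.5, 120.4 and 88.4. These are dim signals: the array 2 value lay below that array's median of 102, and the array 1 value not far above its median of 105.9. Both cardio-renal arrays lay below the control, as they did for 29.8% of all genes. The differences were -0.60 and -0.95, a mean of -0.78 ± 0.25 (SD, n = 2), with a limma adjusted p of 0.9998. *Aldh2*, an aldehyde dehydrogenase, stood at 0.34 and 0.28 on its brightest probe set, though 2 of its 4 others lay below the control in array 2. *Sat2*, a relative of *Sat1*, stood at 0.25 and 0.27. *Slc22a2*, the organic cation transporter named above, had signals of 5504, 3894 and 6379; array 1 was the lowest and array 2 the highest.

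Deoxyhypusine synthase and hydroxylase (*Dhps*, *Dohh*) use spermidine to modify the translation factor eIF5A. All 4 genes of this short pathway were kept, with 0 higher and 1 lower in both arrays and medians of -0.02 and -0.0016. *Eif5a2* stood at -0.08 and -0.18 and *Dhps* at -0.02 and 0.09, or at -0.21 and -0.17 on its other probe set. The MYC family, whose founding member activates *Odc1* transcription, had 7 of 8 genes kept, 3 higher and 3 lower in both, with medians of -0.05 and 0.03. *Myc* had signals of 145.4, 232.1 and 167.5, differences of 0.58 and 0.17. *Mycn* stood at 0.62 and 0.34 on its brightest probe set but at -0.61 and -0.54 on 1425923_at, and the MYC antagonist *Mxd1* at -0.26 and -0.45.

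**Figure D4:**
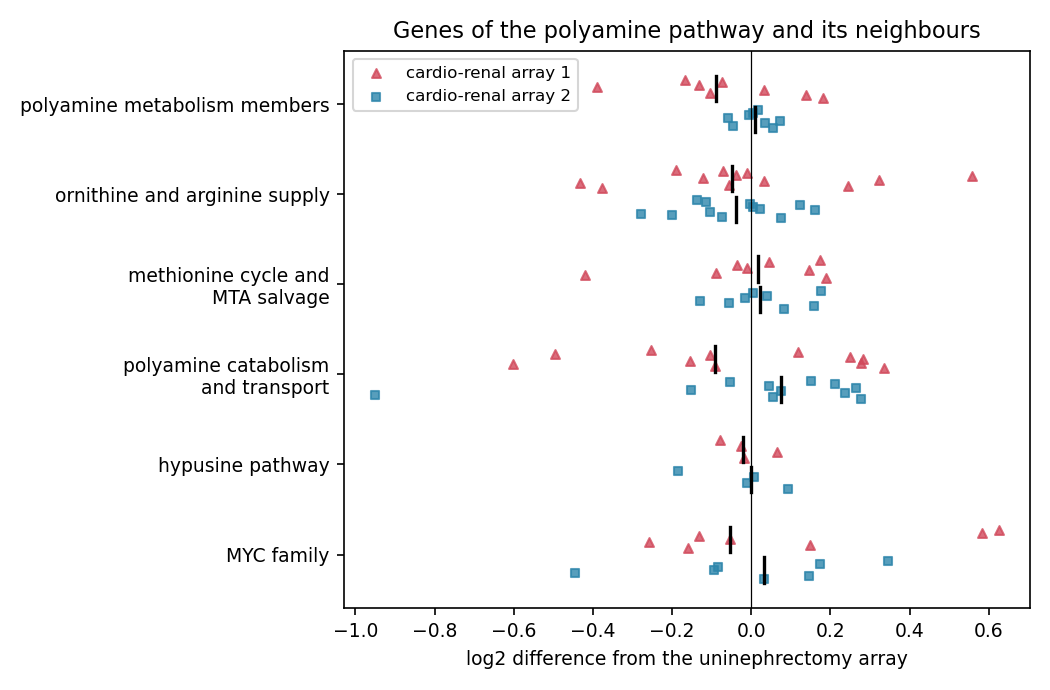
Log2 difference from the uninephrectomy array for each kept gene (brightest probe set) of the polyamine metabolism members and 5 neighbouring lists, in cardio-renal array 1 (triangles) and array 2 (squares), with list medians as black bars; MTA is methylthioadenosine. Medians lie between -0.09 and 0.08, and the leftmost points are Aoc1, at -0.60 and -0.95.

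The 3 genes with the pattern most like *Odc1* probe set 1427364_a_at, by Euclidean distance over its 2 log2 differences on these 3 arrays, were *1700016C15Rik* (distance 0.0092), *Zfp239* (0.023) and *Gpr155* (0.038). Their differences in array 1 were -0.97, -0.96 and -0.96. With 3 arrays this likeness describes only these samples.

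Heart muscle markers, summed over 7 genes, had signals of 313, 2038 and 1483. The 4 kept genes all lay above the control in both cardio-renal arrays, where 30.6% of all genes did. The filter used the mean of the 3 arrays, so a gene dim on the control, such as *Myh6* at 9.93, passed only through the cardio-renal arrays. This count is therefore a description only. Macrophage markers summed to 6673, 5521 and 6140 over 6 genes. Of these, 2 lay above the control in both arrays and 4 below it (30.6% and 29.8% of all genes). Adipocyte markers summed to 7698, 12723 and 10654 over 4, where *Car3* alone had 3702, 8260 and 6995. *Fabp4*, the 1 of the 4 not higher in both arrays, had 3829, 4226 and 3424 on its brightest probe set. Adrenal markers summed to 280.7, 392.2 and 409.9 over 5. Only 1 of them, *Dbh*, passed the filter, with 114.5, 196.5 and 190.4 on 1459848_x_at, whose suffix marks sequence that may be shared. Its other probe sets, below the filter, gave 25.3, 14.9 and 12.6 on 1447592_at and 56.6, 78.1 and 60.7 on 1450670_at. Lymphocyte markers summed to 234.8, 255.5 and 151.2 over 5 genes, and none passed the filter. No marker was at 0, which without detection calls does not show that it was expressed. The part of these tissues in the members' values was not tested. Array medians were 100.1, 105.9 and 102.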

How the data were processed

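Each array held biotin-labelled cRNA made from 250 ng of kidney total RNA by a 3′ IVT labelling kit (labels' protocols). The deposited intensities are MAS5 signals, per the submitters' processing notes; its version and the genome build are not given in the sources used here. As a check, the trimmed mean (2% at either end) of the intensities the authors deposited was 500 on every array, and no scaling was added.

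Control probe sets (64) were set aside. Symbols came from the platform annotation, updated by Entrez ID through RefSeq GRCm38.p6 (34741 of 34945 single-symbol probe sets matched). Values became log2(signal + 28.8), and probe sets with a mean of at least 7.01, the median, were kept. limma 3.58.1 in R 4.3.3 (lmFit, eBayes with trend, two-sided, Benjamini-Hochberg at 0.05) compared 2 cardio-renal arrays with 1 control. The fit was tested on 20 simulated sets with 200 changed probe sets each. At the adjusted p it recovered 90.45% of changes of 2 log2 units but 14.15% of changes of 1. A mean of 41.1 unchanged probe sets per set were called falsely. A count of 0 by the adjusted p therefore says little about 2-fold changes. It also says little about larger ones, because the 200 changes per simulated set were a choice and may differ from these data. In the data themselves, *Actc1* (2.50 and 2.08) and *Myh6* (3.29 and 2.49) lay above 2 log2 units in both cardio-renal arrays and were not called. Precision is limited by the number of arrays, and p-values reflect the spread of these samples alone, which may be technical.

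From each pathway list the text names up to 3 genes with the largest difference of one sign and the gene furthest apart between the cardio-renal arrays; all members are named, and 3 genes most like the member furthest apart. Marker genes named were picked with their values known. Members and lists were chosen with earlier results of these data known. Alternatives were other offsets, no filter, quantile normalization, gene-level values, no shared-sequence probe sets, other eBayes settings and leaving out either cardio-renal array.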

Additional observations from a re-analysis of the deposited data

How the results depend on the processing

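Limits come first from the single control array and from having only signals, with no detection calls, so dim probe sets cannot be told from background. No paired analysis was possible because the labels give no replicate numbers and the control group has 1 array. The adjusted p called 0 probe sets in every fit that could be run (offsets of 1 and 100, no filter, quantile normalization, both gene-level settings, no shared-sequence probe sets, no trend, robust trend); with a cardio-renal array left out no residual degree of freedom remained. The members' median difference, -0.03, lay between -0.09 and 0.03 when either cardio-renal array was left out, and between -0.05 and -0.02 in the other settings.

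Counts over all probe sets followed the number tested and the offset. An offset of 100 gave 14 probe sets above the control by 2-fold or more in both cardio-renal arrays, 6 below it and 133 at least 2-fold apart between those arrays, against 32, 12 and 219. No filter gave 190, 60 and 1156, with 15644 higher in both and 13168 lower in both, against 7161 and 6684. One probe set per gene gave 15, 6 and 111, with 3415 and 3316; the mean per gene gave 9, 4 and 92, with 3242 and 2974. Without shared-sequence probe sets, 6 were at least 2-fold lower. With 1 cardio-renal array left out, counts ran from 60 to 110 (2-fold higher), 47 to 119 (2-fold lower), 10935 to 12061 (higher) and 10458 to 11584 (lower).

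With both arrays, the mean of *Odc1* ran from -0.59 to -0.57 on 1427364_a_at and from -0.40 to -0.36 on 1438761_a_at in the probe set settings. On 1437711_x_at it ran from -0.22 to -0.17 in those; with 1 value per gene, *Odc1* stood at -0.22 (brightest probe set) and -0.40 (mean of probe sets).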
